A study of Mus musculus with 2 samples.

Results

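The Ly6 (lymphocyte antigen 6) genes examined here are the 8 listed genes *Ly6a*, *Ly6c1*, *Ly6c2*, *Ly6d*, *Ly6e*, *Ly6g*, *Ly6i* and *Ly6k*, taken by symbol from the 33696 genes of the count tables, and all 8 were found. They were followed in every cell class of 2 single-cell libraries of CT26 tumors, a mouse colon carcinoma line grown under the skin of male BALB/c mice aged 6 to 8 weeks. The untreated library (UT) came from tumors that received nothing, and the treated library (BUP) from tumors given BUP-Gel, a hydrogel carrying the local anesthetic bupivacaine at 40 mg/kg. Each library pooled live CD45+ and CD45- cells sorted from 3 tumors, mixed at 4 to 1 by the sample labels and at 3 to 1 by the methods of the study. With 1 library per group there is no replicate and no test, so the values are descriptions of these libraries, and a group given gel without the drug was not analysed here.

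Ly6 proteins are small surface proteins built on the LU domain, a compact fold held together by disulfide bonds, and most are tied to the outer membrane by a GPI lipid anchor. Several are the classic antibody markers of mouse leukocytes: Ly6C separates classical from patrolling monocytes, Ly6G marks neutrophils, and Ly6A, also called Sca-1, marks stem and progenitor cells and activated T cells. *Ly6a*, *Ly6c1*, *Ly6c2* and *Ly6e* are known to be induced by interferons. BALB/c mice carry another haplotype of this locus than the strain of the reference genome, and the part of this difference in the counts was not tested.

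All 8 members lay in 1 cluster on chromosome 15 of GRCm39, spanning 397081 bases (GENCODE vM39). In order along the chromosome they were *Ly6d* (chr15:74633902-74635597, minus strand), *Ly6k* (chr15:74668723-74672029, minus), *Ly6e* (chr15:74826860-74847454, plus), *Ly6i* (chr15:74851383-74855279, minus), *Ly6a* (chr15:74863840-74869880, minus), *Ly6c1* (chr15:74915847-74920686, minus), *Ly6c2* (chr15:74980003-74988467, minus) and *Ly6g* (chr15:75027089-75030982, plus). All are annotated as protein-coding. The coding sequences of *Ly6a* and *Ly6i* shared 86.4% of aligned bases, whereas *Ly6e* shared 45.0 to 48.0% with *Ly6a*, *Ly6c1*, *Ly6c2*, *Ly6g* and *Ly6i*.

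The coding sequences of *Ly6c1* and *Ly6c2* have 396 bases each, of which 387 were the same and 9 differed, giving 97.7% identity. Their first 120 bases are shown because the counts of these genes rest on very few differences, and the 6 differing bases in this stretch are in capitals:
Ly6c1 coding sequence, bases 1 to 120: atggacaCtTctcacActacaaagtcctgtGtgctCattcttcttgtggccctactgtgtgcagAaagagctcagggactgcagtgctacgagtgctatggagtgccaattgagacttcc
Ly6c2 coding sequence, bases 1 to 120: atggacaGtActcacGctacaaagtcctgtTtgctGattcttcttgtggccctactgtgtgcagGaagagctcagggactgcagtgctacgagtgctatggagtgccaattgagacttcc
Over the first 300 bases of the annotated transcripts, where a 5' assay reads, 20.6% of 90-base windows of *Ly6c1*, 13.5% of those of *Ly6c2* and 10.3% of those of *Ly6a* were found unchanged in a transcript of another gene of the region, and none of those of the other members were. The split of counts between *Ly6c1* and *Ly6c2* is therefore uncertain, and their sum is given beside the separate values. All 111 of the shared *Ly6a* windows were found in *Ly6c1*, which the sum does not remove. The part of this in the *Ly6a* counts was not tested.

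The 7163 UT and 6776 BUP cells kept had medians of 8430 and 10420 unique molecular identifiers (UMIs, which tag single RNA molecules). They fell into 23 classes, of which 22 had at least 50 cells, named "-like" where their marker genes allowed and by leading genes otherwise. The libraries shared 76 cell barcodes, 1.01% of the UT and 1.05% of the BUP barcodes, and 4 of the 68 shared barcodes kept in both were in the same class. Doublet scores from Scrublet called 0.447% of UT and 2.33% of BUP cells, and the reason for this difference was not tested. The 6% of cells with the highest scores in each library were therefore taken as high. A class mixing T and myeloid transcripts, where 44.6% of cells had high doublet scores, and a class mixing neutrophil and macrophage transcripts, with 13.4%, are kept apart below. The erythroid-like class, which should lack these genes, is a rough measure of free RNA. Its cells are shallow, with a median of 1018 UMIs per cell in UT and 1116 in BUP. Erythroid markers made up 505525 CPM of its UMIs in UT and 580046 CPM in BUP. Its CPM is therefore not on a like scale with that of deeper cells, and a level not above it is not shown to be free RNA.

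Levels are the summed UMIs of a gene per 1000000 UMIs of the class (CPM), and ratios are log2 of BUP over UT, so that -1 is a level 2 times lower in BUP. Intervals are exact at 95% and cover counting error only. A member was compared in a class where it had at least 100 UMIs over both libraries, and was called higher or lower at a log2 ratio of at least 0.5 in size. Of 184 member and class pairs, 73 could be compared, and 2 were higher, 33 lower and 38 in between. Over every gene with enough UMIs in these classes, 108350 pairs in all, 3.71% were higher and 6.3% lower. The family was selected on values of this kind, its levels by class and its ratios between these libraries, so the counts describe the members and are not evidence about the family.

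**Figure D1:**
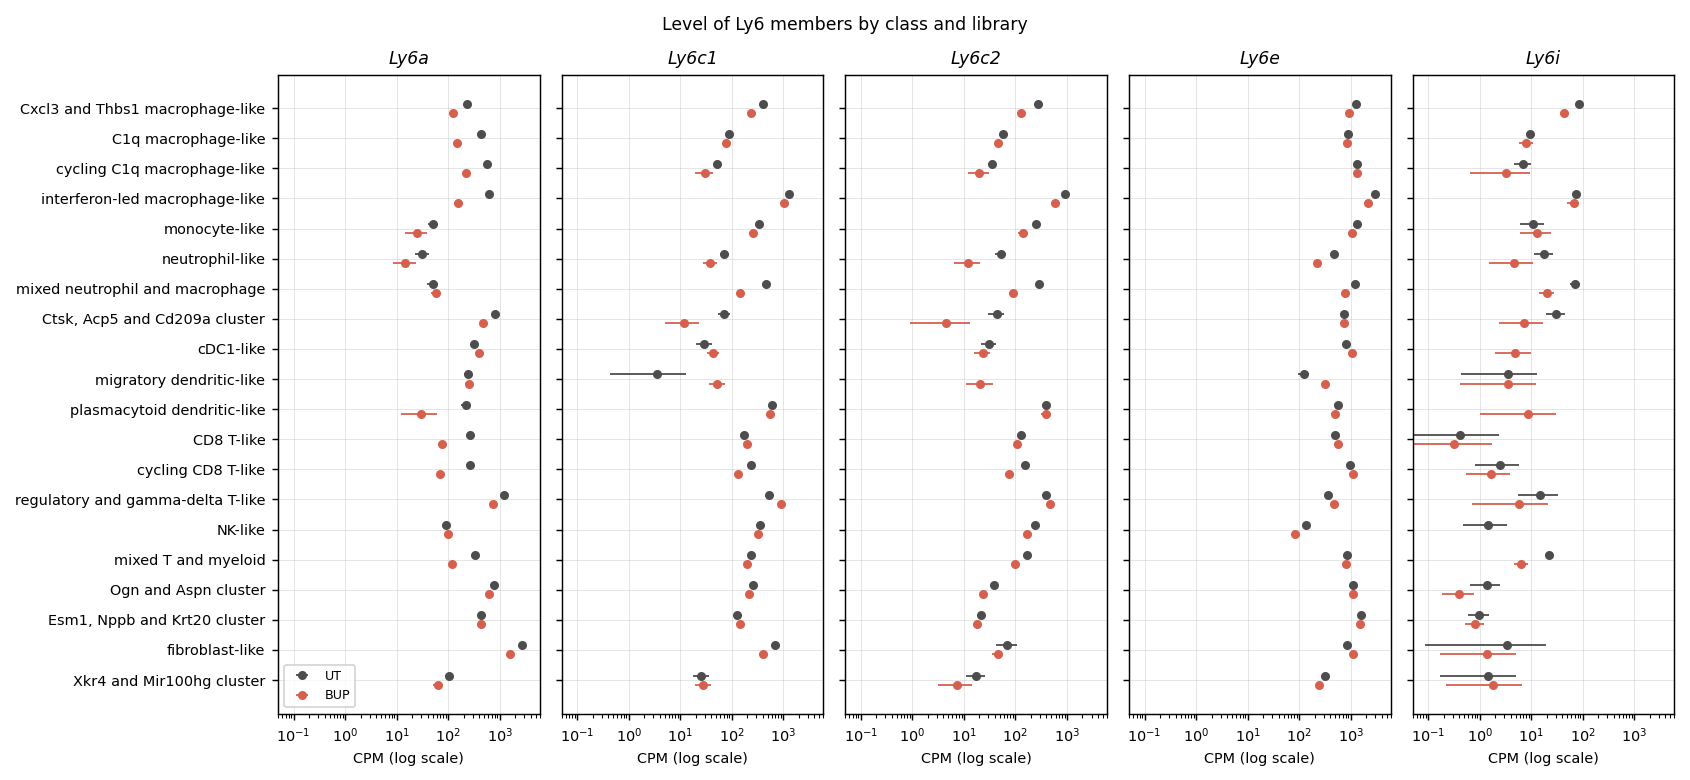
Levels of the 5 members with most UMIs in 20 classes. The x axis is CPM on a log scale, dark points are UT, red points are BUP, and bars are exact 95% Poisson intervals of the count. *Ly6e* lay near 1000 CPM in many classes, but ran from 122 to 2928 CPM over the immune classes of UT. *Ly6a* and the *Ly6c* genes also spread over more than 10-fold between classes.

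Summed over all immune cells, *Ly6a* had the lowest log2 ratio of the members with at least 100 UMIs there. It was at 337 CPM in UT against 136 CPM in BUP, a log2 ratio of -1.31 with an interval of -1.36 to -1.27. Only 18 of the 12816 genes compared over immune cells had a lower ratio, and 5.17% of those genes were called lower. Summed over non-immune cells the level was 527 CPM in UT against 546 CPM in BUP, a log2 ratio of 0.05. Immune cells held 53.4% of all *Ly6a* UMIs in UT and 15% in BUP, but the BUP library also held fewer immune cells, 4048 against 5800.

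The difference over immune cells lay within classes more than in their proportions. With the UT levels of each class and the BUP proportions of classes, the summed *Ly6a* level would be 298 CPM, and with the BUP levels and UT proportions it would be 143 CPM. Of the 17 classes where *Ly6a* could be compared, 0 were higher, 11 lower and 6 in between, with a median log2 ratio of -0.77.

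Among macrophages, *Ly6a* was lower in BUP in all 4 classes. In the C1q macrophage-like class, named for the complement genes of resident-type macrophages, it was at 429 CPM in UT against 148 CPM in BUP, a log2 ratio of -1.53 (-1.64 to -1.43). Only 5 of the 9586 genes compared there had a lower ratio. Fewer cells carried it, 54.1% in UT and 34.5% in BUP, and this remained after each cell was thinned to 2000 UMIs, at 30.3% and 16.2%. Cells with 10 or more *Ly6a* UMIs numbered 190 of 1109 in UT, where they held 80.3% of its UMIs, and 21 of 449 in BUP, where they held 54.7%.

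The cycling C1q macrophage-like class held 564 CPM of *Ly6a* in UT and 222 CPM in BUP, a log2 ratio of -1.35. The interferon-led macrophage-like class, whose leading genes were interferon-induced and held no macrophage marker among its first 10, had the widest gap, 629 CPM in UT against 156 CPM in BUP, a log2 ratio of -2.01 (-2.29 to -1.75). There 1 of 3758 genes had a lower ratio. The 5 cells with most *Ly6a* held 82.7% of its BUP UMIs in that class, so the BUP level rested on few of the 75 cells. Macrophage markers there summed to 6942 CPM in UT and 5870 CPM in BUP with 10 of 10 lower. CD8 T markers summed to 91.3 and 145 CPM with 6 of 6 higher, and erythroid markers to 7.89 and 851 CPM. The part of these shifts in the result was not tested. In the Cxcl3 and Thbs1 macrophage-like class, the largest immune class, the levels were 230 and 125 CPM, a log2 ratio of -0.87.

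T cells showed the same direction. In CD8 T-like cells *Ly6a* was at 263 CPM in UT against 75.6 CPM in BUP, a log2 ratio of -1.80 (-2.02 to -1.58), and 6 of 6584 genes had a lower ratio. The share of CD8 T-like cells with a UMI was 36.7% in UT and 19.0% in BUP, and 23.9% and 10.7% after thinning. In cycling CD8 T-like cells the levels were 262 and 70.4 CPM, a log2 ratio of -1.90. Erythroid-like cells held 62.6 CPM of *Ly6a* in UT (28.6 to 119) and 13.6 CPM in BUP (1.65 to 49.2), below the CD8 T-like levels of 243 to 284 and 66.4 to 85.7 CPM by their intervals. They carried a UMI in 6.25% of UT and 0.877% of BUP cells at a lower depth, and after thinning in 14.3% of 7 UT cells (0.361 to 57.9%), so the shares of UT cells at equal depth were not told apart.

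Transcripts of other cells moved in these classes too. The 10 macrophage markers summed to 427 CPM in the UT and 238 CPM in the BUP CD8 T-like cells, with 10 of 10 lower. In the same cells the 6 markers of CD4 or regulatory T cells summed to 1016 and 687 CPM with 6 of 6 lower, 8 neutrophil markers to 439 and 155 CPM with 6 lower, and 7 fibroblast markers to 9.20 and 9.95 CPM. In C1q macrophage-like cells the fibroblast markers summed to 12.2 CPM in UT against 24.7 CPM in BUP, but 5 of 7 were lower and 2 higher. Neutrophil markers there summed to 1669 and 4716 CPM. The part of all these transcripts in the *Ly6a* levels was not tested.

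The class of regulatory and gamma-delta T-like cells had the highest *Ly6a* level of the immune classes, 1228 CPM in UT against 745 CPM in BUP, a log2 ratio of -0.72. It mixes both kinds of T cell. Its 6 markers of CD4 or regulatory T cells summed to 2338 and 1617 CPM with 6 of 6 lower, and its 4 gamma-delta T markers to 629 and 534 CPM with 4 of 4 lower, and their part in the result was not tested. In a split made after the values were seen, the 18 UT and 12 BUP cells with a UMI of *Foxp3*, the regulatory T cell factor, held 4143 and 1452 CPM of *Ly6a*. The 18 UT and 11 BUP cells with *Trdc* or *Il17a*, genes of gamma-delta T cells, held 739 and 166 CPM. With so few cells the split shows only that *Ly6a* was carried by both.

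In the mixed T and myeloid class *Ly6a* was at 328 and 118 CPM, a ratio of -1.47, where 4.11% of all genes were lower. Levels were closer in cDC1-like, migratory dendritic-like and NK-like cells. In cDC1-like cells, the cross-presenting dendritic cells, *Ly6a* was at 312 CPM in UT against 396 CPM in BUP, a log2 ratio of 0.34, and in migratory dendritic-like cells at 244 and 253 CPM, a ratio of 0.05. NK-like cells were at 93 and 98.2 CPM, a ratio of 0.08. Plasmacytoid dendritic-like cells, sources of type I interferon, had too few UMIs to be compared, 82 in 33 UT cells and 7 in 22 BUP cells, or 226 and 29.9 CPM. Monocyte-like cells had 71 and 17 UMIs and neutrophil-like cells 42 and 16. Their UT levels of 51.5 and 30.9 CPM did not exceed the 62.6 CPM of the UT erythroid-like cells, so they were not told apart from background.

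The highest level was in a non-immune class. The small fibroblast-like class, with 15 UT and 64 BUP cells, was first at 2686 CPM in UT against 1580 CPM in BUP, a log2 ratio of -0.77, and 5 cells held 64.5% of the UT UMIs. There 15.8% of all genes were lower. The 7 fibroblast markers were also lower, 37751 and 23043 CPM with 7 of 7 lower, and macrophage markers higher, 85.8 and 497 CPM with 10 of 10 higher, and their part in the result was not tested. Without the 5 cells of each library with most *Ly6a* the ratio was -0.28. The Ogn and Aspn cluster was at 783 and 635 CPM, with a log2 ratio of -0.30, and the Esm1, Nppb and Krt20 cluster at 436 and 440 CPM, a ratio of 0.01. In UT the Ogn and Aspn cluster and the Ctsk, Acp5 and Cd209a cluster, at 824 CPM, did not differ beyond their counting intervals. The latter cluster was at 468 CPM in BUP, a ratio of -0.82, where 14.7% of all genes were lower. Its 6 osteoclast-type markers summed to 840 CPM in UT against 12919 CPM in BUP with 6 of 6 higher, its markers of cDC2 or monocyte-derived dendritic cells to 2228 and 1448 CPM and its neutrophil markers to 245 and 1874 CPM, so a change of level and a change of cells cannot be told apart there. The Xkr4 and Mir100hg cluster was at 103 and 64.4 CPM, a ratio of -0.68, where 12.2% of all genes were lower.

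**Figure D2:**
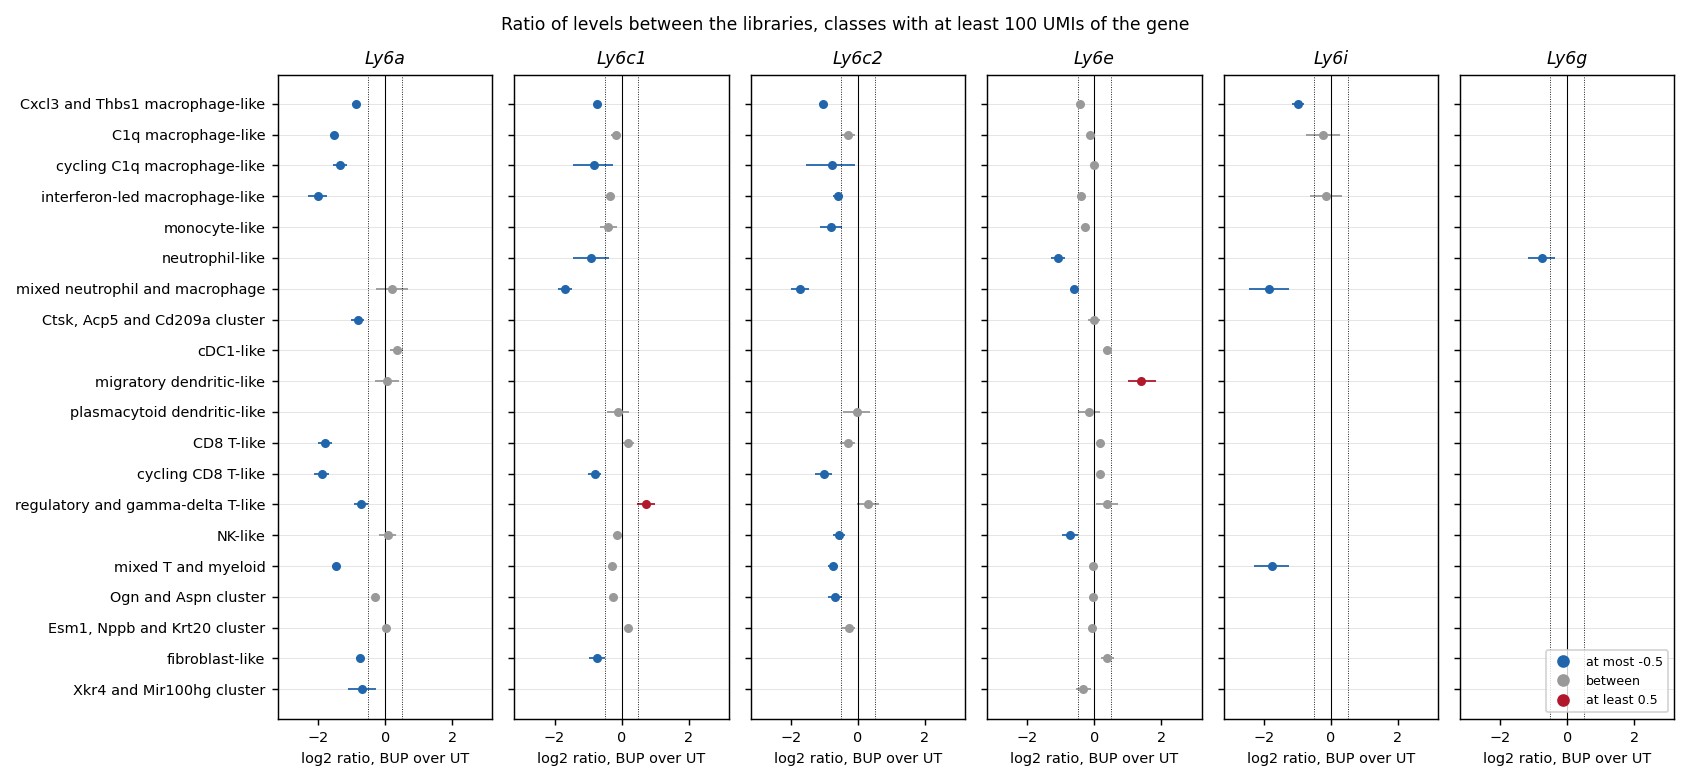
Ratio of BUP over UT for 6 members in the classes where each had at least 100 UMIs. The x axis is the log2 ratio, points are colored by the call at 0.5 (dotted lines), and bars are exact 95% intervals for counting error; *Ly6a* ratios ran from -2.01 in interferon-led macrophage-like cells to 0.34 in cDC1-like cells.

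Since *Ly6a* is an interferon-induced gene, lists of interferon genes were read in the same classes. In the interferon-led class 28 type I interferon response genes had a median log2 ratio of 0.01, with 1 higher and 1 lower, where 3.91% of all genes were higher and 4.84% lower, and the 19 interferon gamma response genes compared had a median of -0.08 with 0 called. The type I genes furthest from 0 there were *Oas2* (-0.65), an antiviral RNA sensor, *Ifit1* (0.55), which binds viral RNA, and *Dhx58* (-0.49), an RNA helicase. Several leading genes of this class are in the type I list, so like levels of that list follow in part from how the class was formed. The *Ly6a* ratio of -2.01 is given beside them, and its cause was not tested.

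In C1q macrophage-like cells 7 of 28 type I genes were lower, with a median of -0.24, against 3.25% of all genes, led by *Ifit3b* (-2.32), *Ifit1* (-1.0) and *Ifit3* (-0.90). Of the 20 interferon gamma genes there 2 were lower, *Gbp2* (-0.54) and *Gbp4* (-0.53), and 1 higher, *Ciita* (0.62), the activator of MHC class II genes, where 4.13% of all genes were higher. In CD8 T-like cells 3 of 12 type I genes were lower, *Rtp4* (-0.73), *Stat2* (-0.62) and *Ifih1* (-0.50), against 6.44% of all genes, and 0 of 14 interferon gamma genes. *Ly6a* had a lower ratio than every listed interferon gene in CD8 T-like cells.

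The Cxcl3 and Thbs1 macrophage-like class differed in that 10 of 20 interferon gamma genes were lower, with a median of -0.51, against 3.61% of all genes. Those furthest down were the GTPase genes *Iigp1* (-1.29), *Gbp4* (-0.82) and *Gbp2* (-0.82), which act against intracellular pathogens. None of 27 type I genes was called there. In the regulatory and gamma-delta T-like class 7 of 13 interferon gamma genes and 3 of 5 type I genes were lower, with medians of -0.59 and -0.83, against 10.1% of all genes. In cycling C1q macrophage-like cells 15 of 25 type I genes were lower, with a median of -0.65, against 8.31%. Over all classes 78 of 334 type I gene and class pairs were lower and 8 higher. Of 302 interferon gamma pairs 69 were lower and 10 higher, where 6.3% of all pairs were lower and 3.71% higher. The part of this in the *Ly6a* ratios was not tested.

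Genes of the interferon receptors and their signal transducers, and those of GPI anchors, were called at shares near those of all genes, of whose pairs 3.71% were higher and 6.3% lower. Of 205 gene and class pairs of that list 4 were higher and 12 lower, among them *Tyk2* (-0.65), a receptor kinase, and *Stat2* in CD8 T-like cells. The 28 measured genes that build and attach GPI anchors gave 8 higher and 18 lower of 212 pairs, and 1 higher and 1 lower of 23 in C1q macrophage-like cells, where 4.13% and 3.25% of all genes were.

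**Figure D3:**
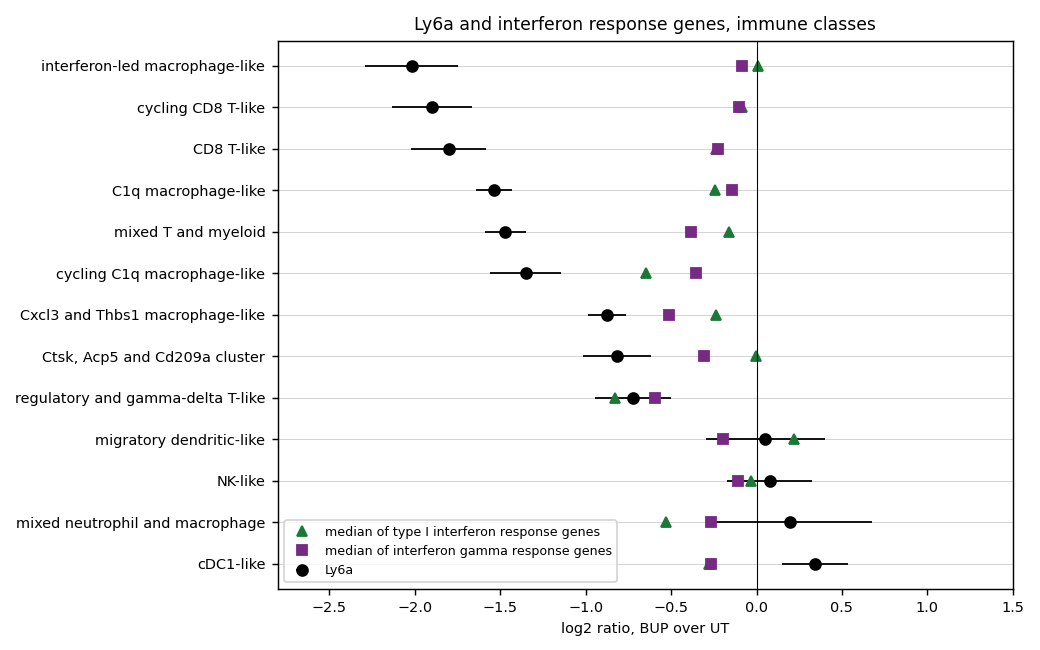
*Ly6a* beside interferon response genes in 13 immune classes. The x axis is the log2 ratio of BUP over UT, black points are *Ly6a* with exact 95% intervals, green triangles and purple squares are the medians of the type I and interferon gamma lists; in interferon-led, CD8 T-like and C1q macrophage-like cells *Ly6a* lay far below both medians, and in regulatory and gamma-delta T-like cells it lay between them.

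The *Ly6c1* and *Ly6c2* genes encode the Ly6C antigens of monocytes, endothelium and memory T cells. *Ly6c1* was compared in 16 classes, with 1 higher, 6 lower and 9 in between and a median log2 ratio of -0.30. *Ly6c2* was compared in 14, with 0 higher, 9 lower and 5 in between and a median of -0.65. Summed, they were compared in 18 classes, with 1 higher, 8 lower and 9 in between and a median of -0.44.

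Both genes were highest in the interferon-led macrophage-like class. The monocyte-like class was led by *Adgre4*, *Ace*, *Cd300a* and *Treml4*, among them genes known from patrolling monocytes, the kind with little Ly6C. In the interferon-led class *Ly6c1* was at 1285 CPM in UT against 1018 CPM in BUP, a log2 ratio of -0.34. *Ly6c2* was at 896 and 593 CPM in that class, a ratio of -0.60. With only cells of at least 1000 UMIs, 500 genes and under 10% mitochondrial UMIs kept, the BUP level was highest in the regulatory and gamma-delta T-like class for both. Monocyte-like cells held 334 and 253 CPM of *Ly6c1*, a ratio of -0.40, and 245 and 140 CPM of *Ly6c2*, a ratio of -0.80. Of 10 classical monocyte genes compared in monocyte-like cells, 1 was higher, *Fn1* (0.72), which encodes fibronectin, and 1 lower, *Chil3* (-0.59), a chitinase-like protein. Of all genes compared there 4.71% were higher and 6.38% lower.

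In the Cxcl3 and Thbs1 macrophage-like class both genes were lower in BUP. *Ly6c1* was at 401 CPM in UT against 239 CPM in BUP, a log2 ratio of -0.75, and *Ly6c2* at 268 and 129 CPM, a ratio of -1.05. Their sum was at 669 and 368 CPM, a ratio of -0.86. C1q macrophage-like cells held little of either, with 86.6 and 77.3 CPM of *Ly6c1* and 56.3 and 45.7 CPM of *Ly6c2*, at ratios of -0.16 and -0.30, and the UT level of *Ly6c1* lay within the interval of the UT erythroid-like cells, 55.7 CPM (24.0 to 110). In that class *Ly6a* was the only one of the 5 members compared that was called.

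Lymphocytes went in both directions. In regulatory and gamma-delta T-like cells *Ly6c1* was the member higher in BUP, at 536 CPM in UT against 890 CPM in BUP, a log2 ratio of 0.73 (0.47 to 0.99), where 6.32% of all genes were higher. *Ly6c2* was at a ratio of 0.30 there, and the sum at 920 and 1363 CPM, a ratio of 0.57. The *Foxp3* cells of this class held 59.2 and 46.8 CPM of *Ly6c1*, and the *Trdc* or *Il17a* cells 523 and 332 CPM, so neither small subset was higher in BUP. In CD8 T-like cells the sum was at 299.9 CPM in UT against 299.2 CPM in BUP, while *Ly6a* in these cells was lower. Cycling CD8 T-like cells had lower *Ly6c1*, 234 and 134 CPM, and lower *Ly6c2*, 151 and 74.8 CPM, at ratios of -0.80 and -1.02, where 5.22% of all genes were lower. In NK-like cells *Ly6c2* was at 244 and 165 CPM, a ratio of -0.56, and the sum of both genes at a ratio of -0.29.

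Genes of T cell memory and activation were read beside them. In CD8 T-like cells 1 of 12 was higher, *Eomes* (0.86), a factor of effector and memory cells, and 2 lower, *Cd44* (-0.63), an adhesion receptor of activated cells, and *Il7r* (-0.53), the survival receptor for the cytokine IL-7, where 1.99% of all genes were higher. In regulatory and gamma-delta T-like cells those furthest from 0 were *Tox* (-0.98), a factor of chronic activation, *Ccr7* (0.83), the lymph node homing receptor, and *Klf2* (-0.76), a quiescence factor.

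Granulocytes carried little *Ly6c*. Neutrophil-like cells were at 72.2 CPM of *Ly6c1* in UT and 38.5 CPM in BUP, a log2 ratio of -0.91, and the sum of both genes was at -1.30. Of all genes compared there 13.9% were lower. The UT level of *Ly6c1* was not above that of the UT erythroid-like cells by their intervals, so it was not told apart from background. Macrophage markers in these neutrophil-like cells summed to 1187 CPM in UT against 724 CPM in BUP, and their part in the result was not tested. In the mixed neutrophil and macrophage class *Ly6c1* was at 458 and 143 CPM, a ratio of -1.68, and *Ly6c2* at 293 and 88.6 CPM, a ratio of -1.72, where 5.52% of all genes were lower, while *Ly6a* was at 50.2 and 57.4 CPM. That class holds more than 1 lineage, so its proportions and its levels cannot be told apart.

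The balance between *Ly6c1* and *Ly6c2* differed between immune and non-immune cells. Each molecule gives 1 UMI whatever its length, and the *Ly6c2* share of the UMIs of both genes was 33.4 to 43.7% over 24 immune classes and libraries with enough UMIs, with a median of 39.3%. It was 9.09 to 14.4% over 6 non-immune ones, with a median of 10.5%, and these ranges did not overlap. The non-immune Xkr4 and Mir100hg cluster had too few UMIs to be among them, and its UT share of 40% (27.6 to 53.5%) lay in the immune range, against 20.5% in BUP. In single cells of the Ogn and Aspn cluster 825 carried *Ly6c1* alone, 48 *Ly6c2* alone and 454 both, and *Ly6c2* there was at 38.9 and 24.0 CPM, a ratio of -0.70, where 4.47% of all genes were lower. Macrophage markers in that cluster summed to 564 and 293 CPM with 10 of 10 lower, and neutrophil markers to 497 and 195 CPM with 8 of 8 lower, and their part in the *Ly6c2* level was not tested. In the Cxcl3 and Thbs1 macrophage-like class these numbers were 277, 138 and 793. The share was lower in BUP in 12 of the 14 classes with enough UMIs in both libraries, and over all immune cells it was 40.5% in UT and 35.2% in BUP. Exactly shared sequence cannot be assigned to either gene, and its part in these shares was not tested.

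**Figure D4:**
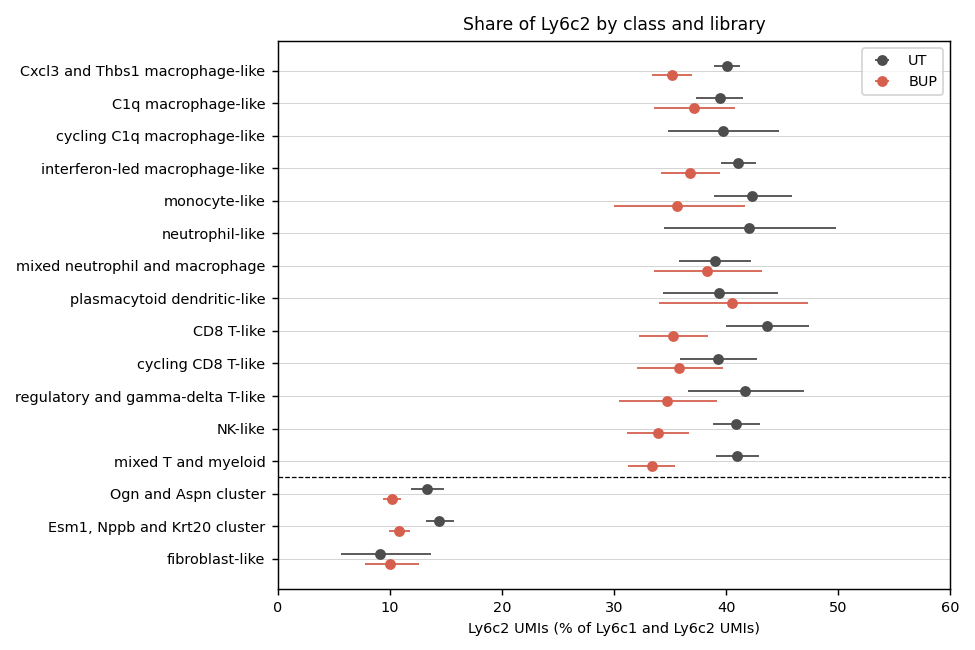
Share of *Ly6c2* in the UMIs of *Ly6c1* and *Ly6c2* together, by class. The x axis is percent, dark points are UT, red points are BUP, bars are exact 95% binomial intervals, and the dashed line parts immune classes (above) from non-immune ones (below); immune classes lay at 33.4 to 43.7% and non-immune ones at 9.09 to 14.4%.

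Sequence before the RefSeq start of transcription is shown for the 3 of 8 members found in the RefSeq promoter table (GRCm38.p6), *Ly6c1*, *Ly6c2* and *Ly6g*, since the balance of the first pair differed between immune and non-immune cells. Each was placed on GRCm39 by exact match and is printed 5' to 3' on the strand of its gene, stopping before the first base of its 250-base window that GENCODE annotates as exon, with the motif GAGGAAGT in capitals. The RefSeq start of *Ly6c2*, just past its window of chr15:74983821-74984070, lies inside the longer GENCODE gene, and that of *Ly6g* lies 21 bases inside the GENCODE gene:
Ly6c1 promoter, chr15:74920687-74920936, minus strand: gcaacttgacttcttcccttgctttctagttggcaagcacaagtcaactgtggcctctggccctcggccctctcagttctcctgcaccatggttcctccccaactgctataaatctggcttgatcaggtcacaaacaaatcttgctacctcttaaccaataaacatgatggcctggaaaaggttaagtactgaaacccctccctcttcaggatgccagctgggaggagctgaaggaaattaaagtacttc
Ly6c2 promoter, chr15:74983914-74984070, minus strand: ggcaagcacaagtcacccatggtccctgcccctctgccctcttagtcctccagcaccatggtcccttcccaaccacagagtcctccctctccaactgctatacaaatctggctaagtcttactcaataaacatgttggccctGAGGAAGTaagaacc
Ly6g promoter, chr15:75026860-75027088, plus strand: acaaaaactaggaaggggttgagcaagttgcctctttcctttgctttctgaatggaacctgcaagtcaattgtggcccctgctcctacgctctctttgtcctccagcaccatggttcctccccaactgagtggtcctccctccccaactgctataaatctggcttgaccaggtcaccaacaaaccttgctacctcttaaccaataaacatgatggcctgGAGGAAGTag
GAGGAAGT, a purine-rich element of the kind bound by ETS factors such as PU.1, was searched on both strands and began 108 bases before the RefSeq start of *Ly6c2* and 31 bases before that of *Ly6g*, and was not in the *Ly6c1* window. It was in 2.44% of 32851 promoters of the same length. TATAAA was in the *Ly6c1* and *Ly6g* windows, 143 and 99 bases before the RefSeq start, and in 12.4% of promoters. An interferon-type element (GAAA, any 2 bases, GAAA) and the STAT-type element TTCNNNGAA, in 2.98% and 7.02% of promoters, were in none of the 3 windows. A match describes letters in a window and not binding.

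*Ly6e* encodes a broadly expressed member that restricts the entry of some viruses and aids that of others. It was compared in more classes than any other member, with 1 class higher, 3 lower and 16 in between of 20 and a median log2 ratio of -0.07. Its highest level was in interferon-led macrophage-like cells, at 2928 CPM in UT against 2199 CPM in BUP, a ratio of -0.41. The Esm1, Nppb and Krt20 cluster followed, at 1591 and 1503 CPM.

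The classes with lower *Ly6e* were granulocytic or NK cells. Neutrophil-like cells were at 478 CPM in UT against 227 CPM in BUP, a log2 ratio of -1.08 (-1.29 to -0.86), with 13.9% of all genes lower there. In the same cells 14 of 22 type I interferon genes were lower, with a median of -1.06, led by *Ifit3b* (-2.76), *Ifit3* (-2.64) and *Ifit2* (-2.63). NK-like cells were at 138 and 83.5 CPM of *Ly6e*, a ratio of -0.73, and 0 of 16 interferon gamma genes were called there, where 6.44% of all genes were lower. The NK-like *Ly6e* level in UT did not exceed the 181 CPM of UT erythroid-like cells (118 to 265). That in BUP lay within the interval of theirs, 47.7 CPM (19.2 to 98.3), so by CPM neither was told apart from background. In UT 190 of 467 NK-like cells carried a UMI, against 23 of 128 erythroid-like cells, which are shallower. The mixed neutrophil and macrophage class was at 1197 and 790 CPM, a ratio of -0.60.

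*Ly6e* was higher in BUP in migratory dendritic-like cells, at 122 CPM in UT against 323 CPM in BUP, a log2 ratio of 1.40 (1.00 to 1.82), where 7.73% of all genes were higher. The UT level was below that of the UT erythroid-like cells. The UMIs numbered 69 and 185, and 5 cells held 73.9% of them in UT and 58.9% in BUP. Without those cells too few UMIs remained to compare. The share of cells with a UMI was 21.6% in UT and 40.3% in BUP. Markers of other cells were also higher in these BUP cells, with CD8 T markers at 72.6 and 351 CPM, macrophage markers at 702 and 1048 CPM and neutrophil markers at 496 and 1171 CPM, and their part in the result was not tested.

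*Ly6i*, a close relative of *Ly6a* expressed in the myeloid lineage, had 1527 UMIs in UT and 579 in BUP, of which immune cells held 1494 and 544. It was compared in 5 classes, with 0 higher, 3 lower and 2 in between. In the Cxcl3 and Thbs1 macrophage-like class, where its level was highest in UT, it was at 85.1 CPM in UT against 43.4 CPM in BUP, a log2 ratio of -0.97. In the mixed neutrophil and macrophage class it was at 70.7 and 19.9 CPM, a ratio of -1.83, the lowest ratio of 4004 genes. Interferon-led cells differed from these, at 72.7 and 66.2 CPM, a ratio of -0.14 (-0.62 to 0.33), in the class where *Ly6a* was at its lowest ratio.

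*Ly6g*, the neutrophil antigen, had 285 UMIs in UT and 184 in BUP in all cells. In neutrophil-like cells it was at 124.5 CPM in UT against 73.4 CPM in BUP, a log2 ratio of -0.76 (-1.16 to -0.37), and -0.49 without the 5 cells of each library with most *Ly6g*. It was caught in 9.02% of UT and 11.3% of BUP neutrophil-like cells, and in 11.1% and 10.1% after thinning, so at this depth the share of cells gave no difference. Of all genes compared in these cells 13.9% were lower, and 156 of 2546 had a lower ratio than *Ly6g*. Of 9 neutrophil maturation genes compared there 2 were lower, *Camp* at 329 and 6.42 CPM (-5.68) and *Ltf* at 212 and 28.5 CPM (-2.90), both granule proteins made by immature cells, while *Retnlg* (0.45) and *Cxcr2* (0.06), genes of mature cells, were not called.

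*Ly6d*, a marker of the B lineage and of keratinocytes, had 46 UMIs, of which 23 were in the 26 B-like cells, 13 in UT and 10 in BUP. Another 9 were in 1 cell of the Esm1, Nppb and Krt20 cluster. *Ly6k*, known from the testis, had 6 UMIs in all. Neither could be compared.

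The members did not share a common pattern over classes. Over 45 points of class and library, which share 2 libraries and their depth, Pearson's correlation of log2(CPM + 1) was 0.92 between *Ly6c1* and *Ly6c2*, and 0.44 between *Ly6a* and *Ly6c1*. The members were left out of the rankings that follow. The genes most like *Ly6a* among 10348 were *Ppa1* (0.81), an inorganic pyrophosphatase, *Spr* (0.80) and *Ciao1* (0.80). Those most like *Ly6c1* were *Dipk2a* (0.69), *Gpaa1* (0.69), a subunit of the enzyme that attaches GPI anchors, and *Brap* (0.69), and those most like *Ly6c2* were *Slfn8* (0.80), *Kcna3* (0.72), a potassium channel of T cells, and *Tatdn2* (0.71). For *Ly6e* they were *Vim* (0.78), the intermediate filament vimentin, *Ethe1* (0.77) and *Aprt* (0.77), and for *Ly6i* they were *F7* (0.82), coagulation factor VII, *Vis1* (0.80) and *B430306N03Rik* (0.79).

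Genes beside the cluster and other LU proteins were read in the same way. Of 18 protein-coding neighbors within 250000 bases, 12 gene and class pairs could be compared and 0 were called. These pairs came from *Them6*, *Slurp1*, *Lynx1* and *Jrk* only, and in immune classes from *Them6* alone, so they describe little of the locus. Among 36 other LU genes, 3 of 27 pairs were higher and 7 lower, where over all genes 3.71% of pairs were higher and 6.3% lower. The pairs came from 19 classes, and *Plaur*, the urokinase receptor, was compared in each of them, so most pairs are of this 1 gene. *Ly6a2* lies in the same cluster but was not among the neighbors compared. It followed *Ly6a* in the Cxcl3 and Thbs1 macrophage-like class, at 19.0 and 8.81 CPM (-1.11), but not in the interferon-led class (0.27). *Plaur* was at 43.1 and 19.3 CPM in CD8 T-like cells (-1.16) and at 54.9 and 222 CPM in migratory dendritic-like cells (2.01), the same direction as *Ly6e* in that class.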

How the data were processed

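Single-cell RNA of 2 libraries, UT and BUP, was used, grouped by the sample labels. The authors counted UMIs per gene and barcode with Cell Ranger (8.0.1 in the submitters' processing notes) on GRCm39 from 10x 5' v2 libraries. The deposited values are whole, unnormalized counts, 83228442 UMIs in 7556 UT barcodes and 89918925 in 7221 BUP barcodes. The notes also name Seurat 5.0.1, used by the authors downstream. Columns of other samples not used numbered 0.

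Cells were barcodes of over 100 UMIs whose mitochondrial share was below 20%. Clustering in Seurat 5.3.0 (R 4.3.3) used 2000 variable genes without the members, 20 components and a resolution of 0.5, and immune clusters, with *Ptprc* in over 30% of cells, were clustered again. Clusters were named from marker genes, as "-like". Counts were summed per class and library in Python 3.11.15 (numpy 2.4.6, scipy 1.17.1, pandas 2.3.3), with exact Poisson, binomial and conditional 95% intervals, and the ratio script was tested on simulated data. Scrublet ran in scanpy 1.11.5, alignments in Biopython 1.88 and figures in matplotlib 3.10.9. Alternatives covered cell and gene filters, clustering, scaling, thinning and doublets.

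Named genes are all members, the 3 non-member genes most correlated with each member of at least 1000 UMIs, and the 3 list genes furthest from 0. Of these list genes those in the classes described are given, with further list genes chosen after their values were seen. The members and lists were chosen with earlier results of these data known.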

Additional observations from a re-analysis of the deposited data

Results flagged for a closer look

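Ratios of a member that were called in opposite directions in different classes are given here, with every class where it was called. *Ly6c1* was higher in BUP in regulatory and gamma-delta T-like cells, at a log2 ratio of 0.73. It was lower in the mixed neutrophil and macrophage class (-1.68), neutrophil-like (-0.91), cycling C1q macrophage-like (-0.83, but 0.56 with the members kept among the variable genes), cycling CD8 T-like (-0.80), Cxcl3 and Thbs1 macrophage-like (-0.75) and fibroblast-like cells (-0.74). *Ly6e* was higher in migratory dendritic-like cells, at 1.40, and lower in neutrophil-like (-1.08) and NK-like cells (-0.73) and in the mixed neutrophil and macrophage class (-0.60). The UT levels of *Ly6c1* in neutrophil-like and cycling C1q macrophage-like cells and of *Ly6e* in NK-like and migratory dendritic-like cells were not above those of erythroid-like cells by their intervals. With 1 library per group the difference between classes was not tested.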

How the results depend on the processing

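No paired analysis was possible because each group has 1 library and no result comes from a test, and no replicate could be left out for the same reason. The count of lower pairs, 33, stayed within 1.5 times of that under the other settings, and was 13 at a log2 ratio of at least 1. The 2 higher pairs became 4 with cells thinned to 2000 UMIs, 1 with a minimum of 300 UMIs and 1 at a log2 ratio of at least 1. Thinning left 55 pairs to compare, and 23 of the 24 pairs lower in the first setting that could still be compared stayed lower. Leaving out the mixed classes or the 5 cells with most UMIs of a gene, both chosen after seeing the data, gave 26 of 26 and 26 of 30 still lower. With the members and the other LU genes kept among the variable genes, cycling C1q macrophage-like cells reversed to 0.56 for *Ly6c1* and 0.10 for *Ly6c2*. The interferon-led cluster was not separate in that setting. With cells of at least 1000 UMIs, 500 genes and under 10% mitochondrial UMIs, 6 of 10 members and libraries kept their highest class. The cause was not tested. Shallow neutrophil-like and monocyte-like cells limit *Ly6g* and *Ly6a*, and counting intervals cover neither animals nor preparation.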
